A study of Rattus norvegicus with 7 samples.

Results

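Surfactant and alveolar type II genes were 9 of the 14217 genes that had a probe set with a single gene symbol, and were measured by 12 of 31042 non-control probe sets. The members were Sftpa1, Sftpb, Sftpc, Sftpd, Abca3, Napsa, Lamp3, Slc34a2 and Lpcat1, and every probe set was taken whose single gene symbol in the platform annotation was one of these. Sftpa1, Sftpb and Abca3 had 2 probe sets each and the other genes 1 each. All 12 were above the filter on mean level, and each gene was led by its probe set with the highest mean. The 7 arrays measured total RNA from right lungs of Dahl salt-sensitive rats weighing 250 to 350 g, a strain bred for its blood pressure response to dietary salt, after the pulmonary vessels had been perfused with saline. All 7 rats breathed about 9.5% oxygen and received SU-5416, an inhibitor of VEGF receptors, and the series text gives 3.5 weeks for the harvest. The HSU group (3 arrays, numbered 1b, 2b and 3b) had hypoxia and SU-5416, and the HSU_Sor group (4 arrays, numbered 1 to 4) also had sorafenib, an inhibitor of RAF and of receptor tyrosine kinases. Rats given SU-5416 in hypoxia are used to model severe pulmonary hypertension. Normoxic rats and rats in hypoxia alone were not analysed here, so no value below shows an effect of hypoxia or of SU-5416.

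Pulmonary surfactant is a film of phospholipid and protein that lowers surface tension at the air side of the alveolus. Alveolar type II cells make it, store it in lamellar bodies and secrete it, and they are the progenitors of the thin type I cells that cover most of the alveolar surface. Sftpb and Sftpc encode the hydrophobic proteins that spread the lipid film, and Sftpa1 and Sftpd encode collectins, lectins of innate defence in the airspace. Abca3 moves lipid into lamellar bodies, Napsa encodes an aspartic protease that processes the surfactant protein B precursor, Lamp3 a lamellar body membrane protein, Slc34a2 a sodium-phosphate cotransporter and Lpcat1 an acyltransferase that makes saturated phosphatidylcholine. NKX2-1, FOXA and C/EBP transcription factors act on promoters of surfactant genes.

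Of the 9 genes, 6 had an entry in the RefSeq promoter table of assembly GRCr8. The 250 bases before the annotated start are shown for the 3 of these that held a match to a core motif of those factors. On either strand, CACTTG (a core of the NKX2 family), TGTTTAC (a forkhead core) and TTNNGNAA (a C/EBP core) were searched, and matches are in capitals. A match is a description of the letters and not a site. Sftpa1 lies downstream of chr16:17042014-17042263 (+ strand), Lamp3 of chr11:94697772-94698021 (+ strand) and Slc34a2 of chr14:62143073-62143322 (- strand), each printed 5′ to 3′ along the gene.
Sftpa1: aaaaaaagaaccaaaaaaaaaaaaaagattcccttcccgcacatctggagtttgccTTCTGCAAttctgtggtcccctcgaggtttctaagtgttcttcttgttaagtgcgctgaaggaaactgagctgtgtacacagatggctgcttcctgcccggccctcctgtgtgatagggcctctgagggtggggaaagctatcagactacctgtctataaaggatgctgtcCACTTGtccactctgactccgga
Lamp3: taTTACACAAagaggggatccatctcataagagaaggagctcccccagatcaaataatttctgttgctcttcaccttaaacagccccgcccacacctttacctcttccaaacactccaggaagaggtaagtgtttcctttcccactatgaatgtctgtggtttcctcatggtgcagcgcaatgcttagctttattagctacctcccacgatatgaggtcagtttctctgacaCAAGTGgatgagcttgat
Slc34a2: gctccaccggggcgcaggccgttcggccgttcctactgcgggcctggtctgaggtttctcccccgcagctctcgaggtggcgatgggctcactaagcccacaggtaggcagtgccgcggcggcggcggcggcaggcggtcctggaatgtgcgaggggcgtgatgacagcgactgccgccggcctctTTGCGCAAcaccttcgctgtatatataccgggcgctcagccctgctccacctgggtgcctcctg
The core CACTTG was found 23 to 18 bases before the start of Sftpa1, and on the opposite strand 18 to 13 bases before that of Lamp3. It was thus in 2 of 6 members' windows, against 11.7% of all 33469 windows of this length. TTNNGNAA was in 3 of 6, against 37.2% of all windows, and in Slc34a2 its match reads the same on both strands. TGTTTAC was in 0 of 6, against 3.21% of all windows.

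The probe sets of all 9 genes gave strong signal in these lungs, and several stood near the top of the array scale. The highest value on an array lay between 16 and 16.14 on the log2 scale, and the median of an array between 3.59 and 3.68. The probe set of Sftpc was 0.54 to 0.64 below the highest value of its array, and the brighter probe set of Sftpa1 0.59 to 0.87 below it. Those of Sftpb, Lamp3 and Slc34a2 were 1.11 to 1.66 below it, and those of Sftpd, Napsa, Lpcat1 and Abca3 2.23 to 3.76 below it. Over all arrays, 11 probe sets had a higher mean than that of Sftpc and 13 a higher mean than that of Sftpa1. These positions say where a probe set lay on the scale, and do not rank the transcripts by abundance.

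Spread between arrays narrowed toward the top of the scale for the array as a whole. The median SD within groups fell by bins of level from 0.184 for probe sets between 7 and 8 to 0.126 between 12 and 13, 0.078 between 14 and 15 and 0.056 for the 32 probe sets between 15 and 16. In that last bin 0 probe sets differed by 1.4-fold or more between the groups, against 1.21% of the bin below it and 6.91% between 7 and 8. Whether saturation compressed differences of Sftpc and Sftpa1 was not tested. Sftpc had a pooled SD of 0.048, against a bin median of 0.056. Sftpa1 had 0.124, the highest of the 32 probe sets of the bin. Its dimmer probe set, at a mean of 14.21, had an SD of 0.095 and a difference of -0.10 between the groups, close to the -0.12 of the brighter one.

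**Figure D1:**
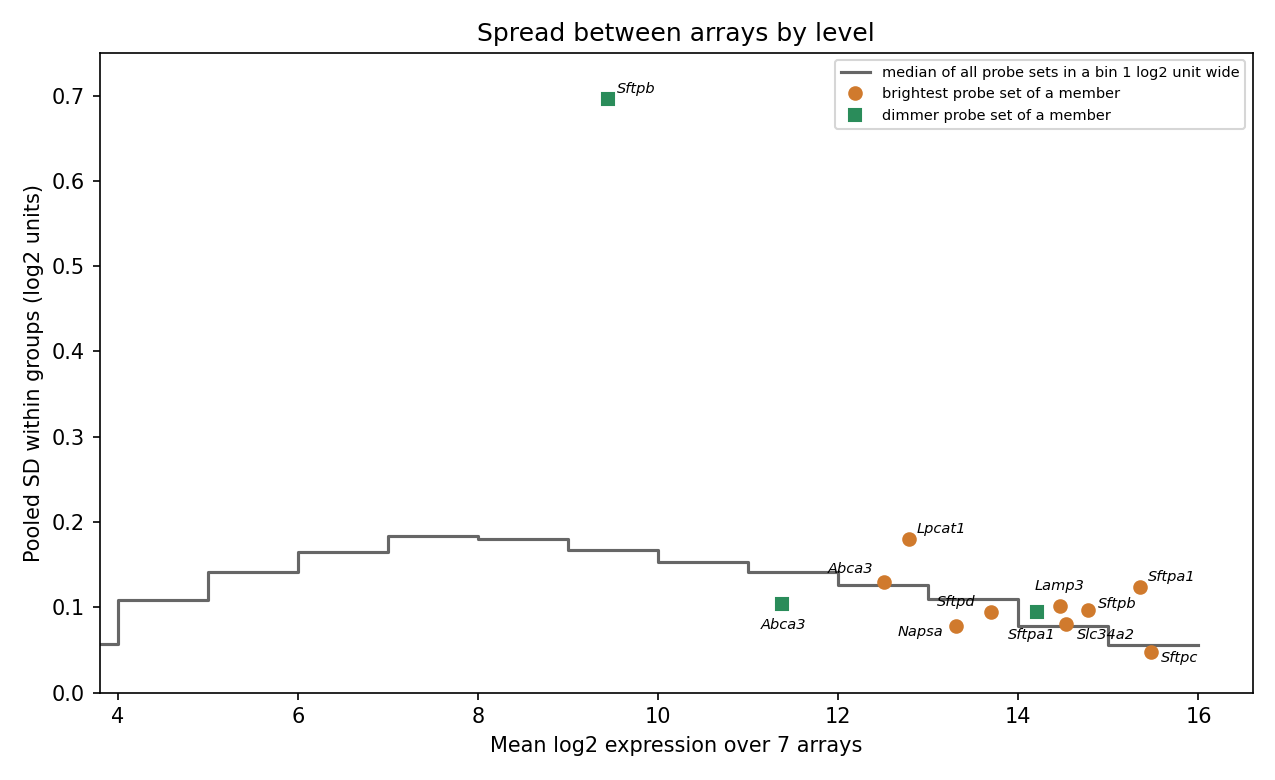
Pooled SD within groups (log2 units) of the 12 member probe sets against their mean log2 expression over 7 arrays, with the median of all probe sets in bins 1 log2 unit wide as a grey line. Most members lie near the line where it falls toward the top of the scale, Sftpa1 lies above it at 0.124, and the dimmer probe set of Sftpb stands far above it at 0.696.

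The arrays were not alike in everything beside the treatment. Titles of HSU arrays all end in the letter b and those of HSU_Sor arrays do not, so whatever the letter marks cannot be told apart from sorafenib. Signal on arrays 1b and 2b of HSU was present at 6 probe sets and over 3 log2 units lower on the other 5 arrays. All 6 belonged to RT1 (MHC) genes, such as a probe set of RT1-Bb at 12.57 on both and at 3.55 to 3.72 on the rest. Another probe set of RT1-Bb was between 13.08 and 14.06 on all 7 arrays, so the gene itself was detected on each. The labels give 1 strain for all 7 rats, and whether these arrays came from 1 strain was not tested. The mean level of 8 cardiac muscle markers was 6.51 and 5.76 on those arrays and between 4.40 and 4.91 on the other 5. Hbb, a beta globin, was at 12.11 and 11.59 on HSU_Sor 3 and 4 and between 14.23 and 14.75 elsewhere. No member was among the probe sets named here. The search for a gap of over 3 log2 units covered arrays 1b and 2b alone. No member could meet it, since none ranged over more than 1.65 log2 units. HSU 1b was the highest array for 5 of the 9 member genes. For some members, values without 1 or more of these arrays are given beside the results.

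The comparison asked whether adding sorafenib to hypoxia and SU-5416 went with a different level of type II cell transcripts in the lung. No member passed the test. In limma, 0 of 9 genes had an adjusted p below 0.05 (adjusted p from 0.829 to 0.982), where 0.00% of the 15521 probe sets tested did. At an unadjusted p below 0.05 there were 0 of 9 members as well, against 6.00% of all probe sets, and the smallest unadjusted p of a member was 0.0501, that of Lpcat1. The groups failed to overlap for 0 of 9 members, against 5.26% of all probe sets (2.01% higher and 3.25% lower). A difference of 1.4-fold or more was seen for 0 of 9 members, against 4.46% (1.84% higher and 2.62% lower). By the probe set with the highest mean, the 95% intervals of 8 of the 9 genes lay within a 1.4-fold change in both directions, Lpcat1 being the exception. The interval of the dimmer probe set of Sftpb was wider, from 0.38-fold to 1.81-fold. Since these are whole-lung samples, a change in the number of type II cells and a change in RNA per cell cannot be told apart.

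Of the 9 genes 8 were lower in HSU_Sor in the mean and 1, Abca3, was higher, with a median log2 difference of -0.08. The median over 9299 genes tested was -0.01. Of the 1541 probe sets with a mean of at least 12, 66.6% were lower in HSU_Sor, against 54.0% of all those tested. Whether the direction of the members follows from their level was not tested. With quantile normalization the differences of Sftpc, Sftpd and Slc34a2 turned to 0.016, 0.0099 and 0.031, and the median to -0.03. Leaving HSU replicate 1b out moved the median to -0.02. Leaving both 1b and 2b out moved it to -0.03, with 1 HSU array remaining, assumed to vary like the others.

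**Figure D2:**
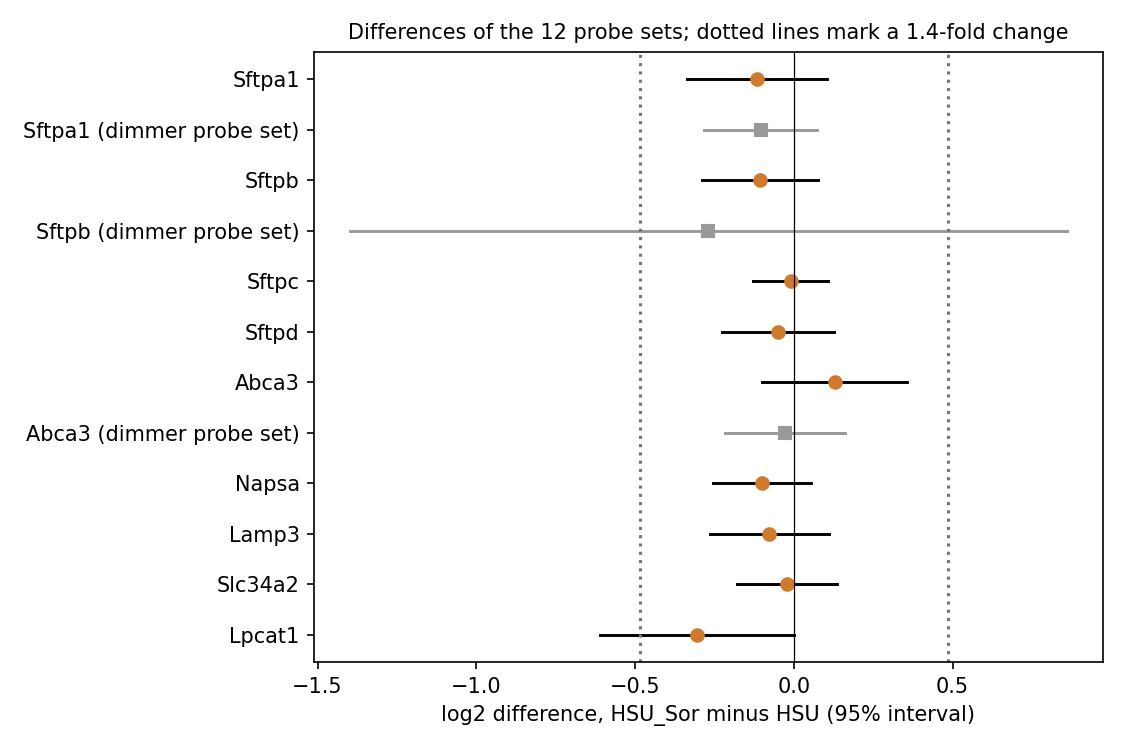
Log2 difference, HSU_Sor minus HSU, of the 12 member probe sets, with 95% intervals from limma; squares mark the dimmer probe set of a gene and dotted lines a 1.4-fold change. The intervals of the 9 brighter probe sets all include 0, and among them only that of Lpcat1 extends past a dotted line.

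Array numbers are given in order, 1b, 2b, 3b for HSU and 1, 2, 3, 4 for HSU_Sor. Among the hydrophobic surfactant proteins, Sftpc read 15.48, 15.46 and 15.49 in HSU, and 15.47, 15.54, 15.46 and 15.39 in HSU_Sor. The 7 arrays spanned 0.15 log2 units, and the HSU_Sor arrays lay on both sides of the HSU arrays. The log2 difference was -0.01 ± 0.05 (SE), with a 95% interval from -0.13 to 0.11, or 0.915-fold to 1.08-fold. Sftpb read 15.01, 14.75 and 14.73 in HSU, and between 14.70 and 14.73 on the 4 HSU_Sor arrays. HSU 1b alone was high, and the other 6 arrays lay between 14.70 and 14.75. Sftpb averaged 14.83 ± 0.15 (SD, n = 3) for HSU, and for HSU_Sor 14.72 ± 0.02 (SD, n = 4). Its difference of -0.11 ± 0.08 (SE, unadjusted p = 0.205) was -0.02 without HSU replicate 1b.

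The dimmer probe set of Sftpb behaved unlike the brighter one. It read 9.56, 10.24 and 9.005 in HSU, and 9.26, 8.92, 10.40 and 8.75 in HSU_Sor. HSU 2b and HSU_Sor 3 were the high arrays, and neither was high at the brighter probe set. Its range over the 7 arrays was 1.65 log2 units, against 0.31 for the brighter one, and its pooled SD of 0.696 was above that of 97.9% of probe sets between 9 and 10. The difference between groups was -0.27 ± 0.47 (SE), which became 0.050 without HSU replicate 2b and 0.33 without HSU 1b and 2b.

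Of the collectins, Sftpa1 was at 15.50, 15.34 and 15.41 on the HSU arrays and at 15.14, 15.44, 15.22 and 15.41 on HSU_Sor 1 to 4 with its brighter probe set. HSU_Sor 1 and 3 were low, and HSU_Sor 2 and 4 lay among the HSU arrays. Its means were 15.41 ± 0.08 (SD, n = 3) and 15.30 ± 0.15 (SD, n = 4), a difference of -0.12 ± 0.09 (SE, unadjusted p = 0.251). Without HSU_Sor replicate 1 the difference was -0.06. Sftpd read 13.88, 13.64 and 13.66 in HSU and between 13.63 and 13.73 in HSU_Sor. As for Sftpb, HSU 1b was the array that stood above the rest. The difference of -0.05 ± 0.07 (SE) in Sftpd was 0.029 without HSU replicate 1b.

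**Figure D3:**
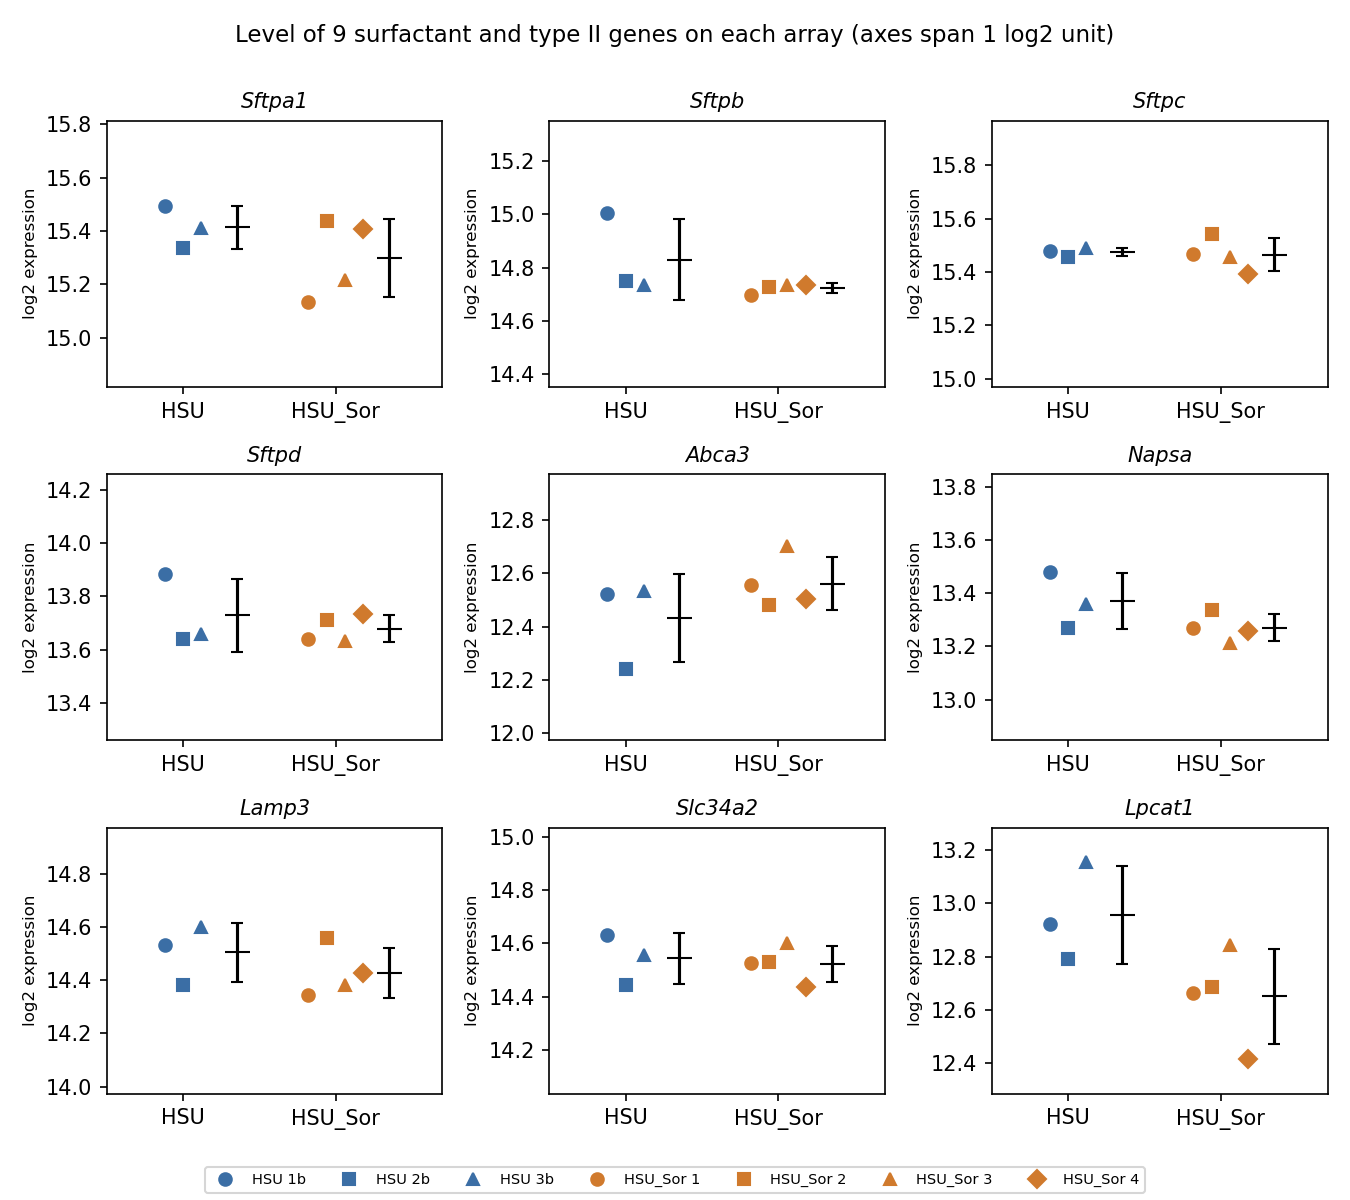
Log2 expression of the 9 genes on each array (brightest probe set), HSU in blue and HSU_Sor in orange, with mean and SD as black bars; every axis spans 1 log2 unit. The groups overlap for each gene, HSU 1b is the highest array for Sftpb and Sftpd, and Lpcat1 comes nearest to separation, with HSU_Sor 3 at 12.84 above HSU 2b at 12.79.

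Of the proteins that build and load lamellar bodies, Abca3 was the member with a higher mean in HSU_Sor. Its brighter probe set was at 12.52, 12.24 and 12.53 on the HSU arrays and at 12.56, 12.48, 12.70 and 12.51 on HSU_Sor 1 to 4. HSU 2b was low and HSU_Sor 3 high, with the remaining 5 arrays between 12.48 and 12.56. The difference was 0.13 ± 0.09 (SE, unadjusted p = 0.220), and 0.03 without HSU replicate 2b. The dimmer probe set of Abca3, between 11.30 and 11.50 in HSU and between 11.23 and 11.48 in HSU_Sor, differed by -0.03 ± 0.08 (SE), so the sign rested on the probe set. Napsa was at 13.48, 13.27 and 13.36 in HSU and between 13.21 and 13.34 in HSU_Sor. Its difference of -0.10 ± 0.06 (SE, unadjusted p = 0.166) had the second smallest p of the 9 genes. Lamp3 lay between 14.38 and 14.60 in HSU and between 14.35 and 14.56 in HSU_Sor, a difference of -0.08 ± 0.08 (SE).

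The transporter Slc34a2 and the acyltransferase Lpcat1 had a narrow and a wide spread over the arrays. Slc34a2 was at 14.63, 14.44 and 14.56 on the HSU arrays and at 14.53, 14.53, 14.60 and 14.44 on the HSU_Sor arrays. The groups overlapped over most of their range, and the difference was -0.02 ± 0.07 (SE), with a 95% interval of 0.884-fold to 1.1-fold. Lpcat1 read 12.92, 12.79 and 13.16 in HSU, and 12.66, 12.68, 12.84 and 12.41 in HSU_Sor. It ranged over 0.74 log2 units, the most of the 9 genes, with HSU 3b highest and HSU_Sor 4 lowest. Its means of 12.96 ± 0.18 (SD, n = 3) and 12.65 ± 0.18 (SD, n = 4) differed by -0.31 ± 0.13 (SE), 1.24-fold lower in HSU_Sor, with an adjusted p of 0.829 in limma. The difference was -0.21 without HSU replicate 3b, -0.23 without HSU_Sor replicate 4 and -0.50 without HSU 1b and 2b together, and its adjusted p in limma was between 0.571 and 0.98 over the 20 alternatives run for this gene. The difference of Lpcat1 was below 0 in 20 of 20. Those of Napsa, Lamp3 and the brighter probe sets of Sftpa1 and Sftpb were also below 0 in every alternative run for them. The alternatives re-use the same arrays, so such tallies are not independent support.

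Deviations of an array were shared by some members and not by others. HSU 1b was the highest array for 5 of the 9 genes (Sftpa1, Sftpb, Sftpd, Napsa and Slc34a2) and HSU 3b for 2 (Lamp3 and Lpcat1). HSU_Sor 1 and HSU_Sor 4 were the lowest for 3 genes each. Averaged over the 9 genes, each centred on its 7-array mean, HSU 1b was highest at 0.12, and HSU 2b, HSU_Sor 1 and HSU_Sor 4 were lowest, each at -0.06. Over the 36 pairs of genes the Pearson correlation across the 7 arrays had a median of 0.42 and ran from -0.30 (Sftpa1 with Abca3) to 0.90 (Sftpb with Sftpd), given as a description, since the arrays share group and scaling. Sftpb with Sftpd was the pair in which HSU 1b alone stood high.

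**Figure D4:**
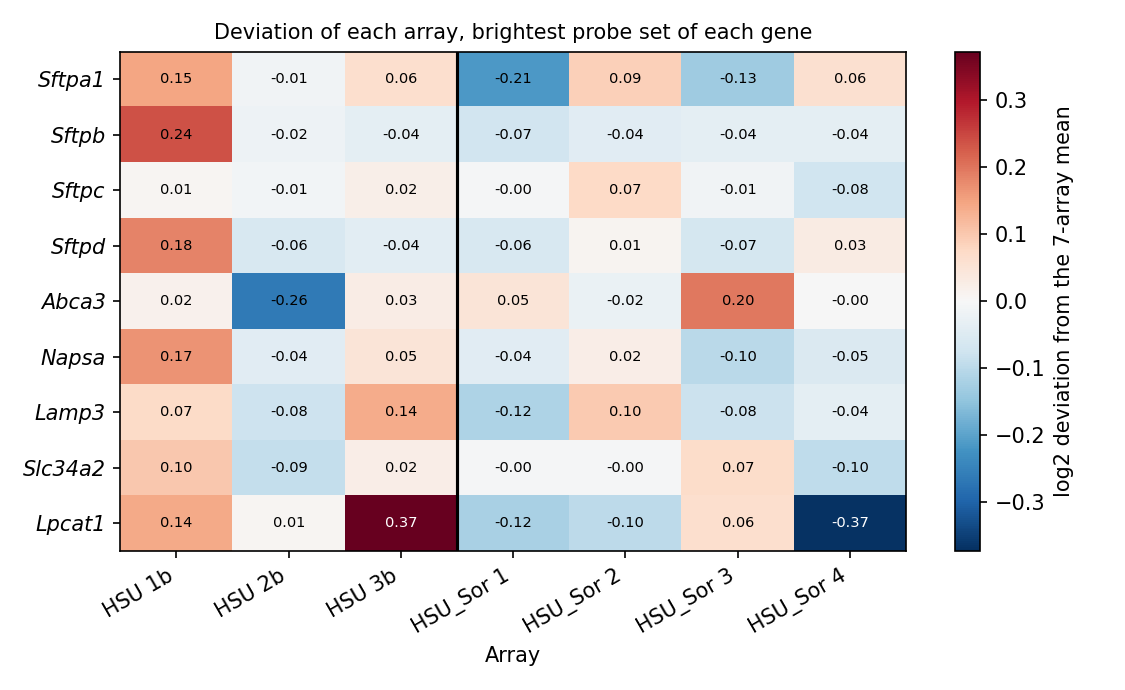
Log2 deviation of each array from the 7-array mean for the 9 genes (brightest probe set); a black line separates HSU from HSU_Sor. HSU 1b is above the mean for all 9 genes, while Abca3 is lowest on HSU 2b and Lpcat1 highest on HSU 3b.

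Other genes of the pathway were described through lists. Beside each list below stand the shares over all probe sets tested. At an unadjusted p below 0.05 in limma, 2.33% were higher and 3.67% lower, and groups did not overlap for 5.26%. Of 23 genes of surfactant lipid synthesis, 21 were tested, and 0 passed the adjusted threshold of limma. At an unadjusted p below 0.05 there was 1 higher and 0 lower, against 2.33% and 3.67% of all probe sets, and the median difference was 0.08. That gene was Slc27a2, a fatty acid transporter and acyl-CoA synthetase, at 7.93, 7.10 and 8.14 in HSU and between 8.40 and 8.86 in HSU_Sor, with groups that did not overlap and a difference of 0.86 ± 0.26 (SE, adjusted p = 0.756 in limma). Acaca, the acetyl-CoA carboxylase that starts fatty acid synthesis, differed by 0.32 ± 0.16 and Pla2g1b, a secreted phospholipase A2, by 0.22 ± 0.12.

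Of 24 genes of lamellar bodies and secretion, 20 were tested, with 0 past the adjusted threshold, 0 higher and 1 lower at an unadjusted p below 0.05 and a median of -0.03. Snap23, a membrane fusion protein, was between 11.44 and 11.53 in HSU and between 11.07 and 11.33 in HSU_Sor, a difference of -0.30 ± 0.07 (SE, adjusted p = 0.611 in limma). Cd63, a tetraspanin of lysosomes and lamellar bodies, differed by -0.25 ± 0.11. The ATP receptor P2ry2, which triggers surfactant secretion, differed by -0.38 ± 0.24.

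Of 19 transcription factors of type II cells, 15 were tested, 0 passed the adjusted threshold, and at an unadjusted p below 0.05 there were 2 higher and 0 lower, with a median of 0.06. Foxa2, a forkhead factor, read 10.16, 10.17 and 10.54 in HSU, and 10.54, 10.84, 10.86 and 10.93 in HSU_Sor. Its groups did not overlap, though HSU 3b and HSU_Sor 1 nearly met, and it differed by 0.51 ± 0.13 (SE, adjusted p = 0.664 in limma). Nkx2-1, the homeodomain factor that activates surfactant genes, was at 12.41, 12.19 and 11.97 in HSU and between 12.41 and 12.69 in HSU_Sor. Its difference was 0.34 ± 0.12 (SE, adjusted p = 0.812 in limma), with HSU 1b and HSU_Sor 1 at the same level. Cebpd, a C/EBP factor, differed by -0.34 ± 0.18, with groups that did not overlap. Whether these differences differ from those of the surfactant genes was not tested.

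Further type II markers, 26 listed and 21 tested, had 1 gene higher and 1 lower at an unadjusted p below 0.05, 0 past the adjusted threshold and a median of 0.09. Cd74, the invariant chain of MHC class II that type II cells and macrophages share, differed by -0.20 ± 0.07, Dlk1, a Notch pathway ligand, by 0.24 ± 0.09 at a level near 5, and the peptide transporter Slc15a2 by 0.51 ± 0.28. Of 15 genes of surfactant clearance by macrophages, 10 were tested, 1 was higher at an unadjusted p below 0.05 and 0 lower. That gene was Abca1, a cholesterol exporter, at 0.74 ± 0.12 (adjusted p = 0.400 in limma). Abcg1, which exports cholesterol from alveolar macrophages, differed by 0.24 ± 0.10, and Tlr4, a receptor for endotoxin, by 0.16 ± 0.09.

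**Figure D5:**
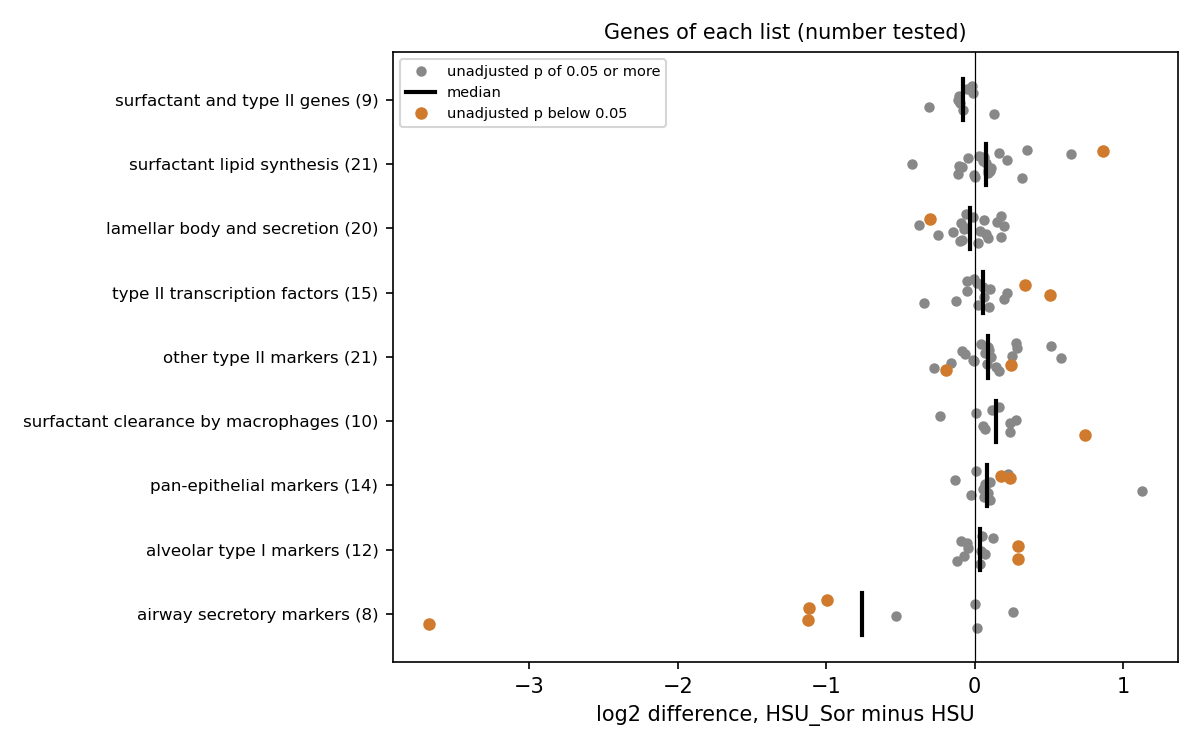
Log2 difference, HSU_Sor minus HSU, of each gene tested in 9 lists (1 point a gene, orange where the unadjusted p was below 0.05, black bars for medians). The 9 surfactant and type II genes lie between -0.31 and 0.13, and among the airway secretory genes Bpifa1 is lowest at -3.68.

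Markers of the other epithelium were set beside these. Of 15 pan-epithelial markers, 14 were tested, 2 were higher at an unadjusted p below 0.05, and the median was 0.08. Ocln, a tight junction protein, differed by 0.18 ± 0.06 and the keratin Krt8 by 0.24 ± 0.09, both with groups that did not overlap, and Rab25 by 0.22 ± 0.12. Cldn7 was at 6.47 on HSU 2b and between 9.42 and 9.78 on the other 6 arrays. Centred on the mean of the 14 markers, which was 0.154 higher in HSU_Sor, the median difference of the surfactant and type II genes was -0.23. Without Cldn7 among the markers the shift was 0.08 and that median -0.16.

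Type I cell markers, 14 listed and 12 tested, had 2 genes higher and 0 lower at an unadjusted p below 0.05, 0 past the adjusted threshold and a median of 0.04. Gprc5a, a receptor, was between 13.46 and 13.60 in HSU and between 13.76 and 13.93 in HSU_Sor, a difference of 0.29 ± 0.06 (SE, adjusted p = 0.570 in limma). Aqp5, the water channel of type I cells, was between 12.81 and 12.92 in HSU and between 13.10 and 13.30 in HSU_Sor, 0.29 ± 0.07 higher in the mean (adjusted p = 0.597). Lmo7, a junction protein, differed by 0.12 ± 0.07. Of 11 markers of cells in transition from type II to type I, 9 were tested and 2 were higher at an unadjusted p below 0.05. These were Krt8 and the integrin Itgb6, at 0.53 ± 0.21, while the growth factor Areg differed by 1.14 ± 0.51.

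Markers of other cell types that a lung sample holds were measured as well. Airway secretory markers had the lowest median of the epithelial lists, -0.76 over 8 genes tested. At an unadjusted p below 0.05 there were 4 lower and 0 higher, against 3.67% and 2.33% of all probe sets, and 0 passed the adjusted threshold. The mean level of all 10 airway secretory markers with a probe set, tested or not, was 10.04 to 10.48 in HSU and 9.21 to 9.71 in HSU_Sor. That of the 9 surfactant and type II genes was 14.03 to 14.22 in HSU and 14.03 to 14.11 in HSU_Sor. Bpifa1, an airway defence protein, differed by -3.68 ± 1.16, Scgb3a1, a secretoglobin, by -0.99 ± 0.30, and the mucin Muc5b by -1.12 ± 0.42. Groups overlapped for each of these genes. Bpifa1 read 13.30, 12.22 and 9.61 in HSU, and 9.78, 8.60, 7.75 and 6.00 in HSU_Sor. Scgb3a1 was at 13.40, 13.39 and 12.56 in HSU and between 11.7 and 12.6 in HSU_Sor. Muc5b was between 10.36 and 10.63 in HSU and between 8.88 and 10.56 in HSU_Sor. The other markers were not all lower: 3 of the 8 had a higher mean in HSU_Sor. Gsta1, a glutathione transferase, differed by 0.26 ± 0.21, Aldh1a1, an aldehyde dehydrogenase, by 0.017 ± 0.073 and Scgb1a1, the club cell secretoglobin, by 0.0048 ± 0.052. Scgb1a1 had a mean of 15.89, near the top of the scale, and whether saturation compressed its difference was not tested. The mean level of 9 smooth muscle markers was 11.81 to 11.98 in HSU and 11.07 to 11.53 in HSU_Sor. The mean level of 11 macrophage markers was 9.23 to 9.997 in HSU and 8.94 to 9.44 in HSU_Sor, which overlap. Of the 10 tested, 5 were higher and 5 lower in the mean, with a median of -0.08. The complement genes C1qa, C1qb and C1qc differed by -1.70 ± 0.43, -2.69 ± 0.84 and -1.68 ± 0.32, and Csf1r, the receptor for macrophage colony-stimulating factor, by 0.17 ± 0.12. Endothelial markers (12.41 to 12.52 against 12.19 to 12.61, 11 genes), ciliated cell markers (8.27 to 8.34 against 8.14 to 8.47, 8 genes) and mesothelial markers (5.58 to 6.17 against 5.62 to 6.39, 6 genes) overlapped. The part of any of these in the values of the surfactant and type II genes was not tested.

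By a likeness measure over the 7 arrays, 9290 other genes were ranked by their Pearson correlation with the mean deviation of the 9 genes. The closest 6 were Myl12a, a myosin light chain (0.97), Ndufb3, a subunit of respiratory complex I (0.96), the tubulin Tuba4a (0.95), the actin-nucleating subunit Arpc5 (0.95), Tmem167a (0.95) and the translation factor subunit Eif3i (0.94). All 6 were highest on HSU 1b or 3b, and differed between the groups by -0.14 to -0.02. With 7 arrays and 9290 genes, values of this size are to be read as a description alone.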

How the data were processed

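Lung total RNA was labelled with biotin and hybridised to Affymetrix rat arrays, 3 of HSU and 4 of HSU_Sor, per the labels' protocols. Values in the table deposited by the authors are log2 signals, 1 per probe set and array. RMA and GCRMA are named in the submitters' processing notes, without saying which of them made the values. The 57 control probe sets were left out. Symbols came from the platform annotation (20826 probe sets with 1 symbol, 436 with several, 9780 with none), and 20758 matched RefSeq gene identifiers, with 0 symbols changed.

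HSU_Sor minus HSU was estimated by limma's moderated linear model (limma 3.58.1 in R 4.3.3), two-sided, on the 15521 probe sets with a mean above the median of all (3.64), p-values being adjusted after Benjamini and Hochberg and read at 0.05. The code of the fit was checked on simulated data with independent noise at each probe set, which cannot show how it behaves under array effects or saturation. The series text names SAM with a minimum fold of 1.4. SAM was not run, and that fold was kept as a second count. Arrays were treated as separate rats, since the series text gives group sizes in rats. P-values set a group difference against the spread between these arrays, which limma moderates toward that of all probe sets tested. The number of arrays limits precision. Named were all members and, of 9 of the 15 other lists, the 3 genes with the smallest unadjusted p (Cldn7 was chosen after its values were seen). RT1-Bb, Hbb and the named macrophage genes, Gsta1, Aldh1a1 and Scgb1a1 were likewise chosen after their values were seen. Members, lists and alternatives were chosen with earlier results of these data known. Deviations of arrays with the same number in their titles correlated at -0.059, 0.179 and 0.144, and those of differently numbered arrays at -0.167 to 0.24. With so few arrays this cannot settle whether the numbers pair them, and the main fit used no pairing.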

Additional observations from a re-analysis of the deposited data

Results flagged for a closer look

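With Dixon's criterion on the 4 HSU_Sor arrays, 4 of 45 gene results had an array apart from the other 3. The criterion flags about 1 in 20 groups of independent, unselected normal values. Beyond the members, the 45 were chosen from these same data, and all share the same arrays. The count can therefore not be read against that rate. Sftpb was at 14.70 on HSU_Sor 1 and at 14.73 on the other 3, a gap that is small in itself and stood out because those 3 were nearly equal. For Aqp5, HSU_Sor 2 read 13.30 and the remaining arrays 13.10 to 13.13. For Itgb6, HSU_Sor 4 read 11.72 and the remaining arrays 12.28 to 12.38. For Muc5b, HSU_Sor 3 read 10.56 and the remaining arrays 8.88 to 9.08. HSU, with 3 arrays, was not tested in this way.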

How the results depend on the processing

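In limma, 0 members passed the adjusted threshold under each of 21 alternatives. At an unadjusted p below 0.05, 1 member (Lpcat1) was counted with a filter at the 75th percentile, a trended and robust prior, weighted arrays, the brightest probe set alone or an average over a gene's probe sets, centring on pan-epithelial markers, and without HSU 1b and 2b, where 5.73% to 7.62% of all features tested were so called. That count was 2 (Lpcat1 and Sftpb), against 6.77% of all probe sets, with centring on markers other than Cldn7, an alternative added after seeing the data. Leaving out 1 array gave 0 to 1 such members (4.5% to 6.00% of all probe sets), and 0 to 2 whose groups did not overlap (7.71% to 13.2%). Groups did not overlap for 5 of 9 members with either centring, against 7.94% of all probe sets with Cldn7 among the markers and 7.49% without it, and both centrings lower every gene's difference by the same amount. They did not overlap for 3 when HSU 1b and 2b were dropped, against 36.9%, and for 2 when HSU_Sor 3 and 4 were, against 17.9%. A fold of 1.4 was reached by 1 member, Lpcat1, without HSU 1b and 2b, against 7.38%. The median difference was -0.23 with centring on pan-epithelial markers, and lay between -0.16 and -0.02 otherwise.

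A replicate block on title numbers was also fitted, though whether these numbers pair the arrays was not settled. With this block, 1 member (Lpcat1) had an unadjusted p below 0.05 in limma, against 6.64% of all probe sets. The signs of Sftpc (0.014) and Slc34a2 (0.0085) turned. That fit uses replicate 4 for no contrast. Signs also turned with quantile normalization (Sftpc 0.016, Sftpd 0.0099, Slc34a2 0.031, the dimmer probe set of Abca3 0.0074, and Arpc5 0.023) and median centring (Sftpc 0.0061). They turned with the second probe set (Abca3 -0.028) and with pan-epithelial centring (Abca3 -0.026, Lmo7 -0.033). Without HSU 1b and 2b, Sftpd turned to 0.019 and Sftpb's dimmer probe set to 0.33. Without HSU_Sor 3 and 4, Sftpc turned to 0.030. Not all of these differences were near 0 in the main fit. There, Sftpb's dimmer probe set was at -0.27, the brighter one of Abca3 at 0.13 and Lmo7 at 0.12. Leaving out 1 array gave ranges of -0.036 to 0.014 for Sftpc, -0.093 to 0.029 for Sftpd, -0.071 to 0.024 for Slc34a2, -0.072 to 0.029 for the dimmer probe set of Abca3, -0.63 to 0.050 for that of Sftpb and -0.059 to 0.0063 for Arpc5. Of 890 gene values under alternatives, 22 had the opposite sign, and the cause was not tested. How far signal near the top of the scale limits Sftpc and Sftpa1 was not tested.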
